A study of Mus musculus with 12 samples.

Results

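The let-7 microRNAs (miRNAs) and the closely related Mir98 were followed in small RNA-seq of mouse embryonic stem cells (ESCs) with and without the DNA methyltransferase Dnmt1 and the RNase III enzyme Dicer. The members were the 10 genes Mirlet7a-1, Mirlet7a-2, Mirlet7b, Mirlet7c-1, Mirlet7d, Mirlet7f-1, Mirlet7f-2, Mirlet7g, Mirlet7i and Mir98, looked up by symbol among the 32101 features of the table, of which 1573 are annotated as miRNAs. A row of that name was found for 8 of the 10, and Mirlet7a-2 and Mirlet7f-1 had none. The hairpins of these genes lie inside rows named only by clone, CT009696.1 for Mirlet7a-2 and AC147162.1 for Mirlet7f-1, whose values are given as values only.

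Of the 12 libraries, 6 come from wild-type cells (WT), 2 from cells without Dnmt1 (Dnmt1 KO) and 4 from cells without both genes (Dicer/Dnmt1 KO). Titles number WT 1 to 3 and Dicer/Dnmt1 KO 1 and 2, each with libraries A and B, and Dnmt1 KO has A and B without a number. Each number is called a culture here, and Dnmt1 KO was taken as 1 culture, which the titles do not state. The titles of WT 2 lack the WT tag that those of WT 1 and 3 carry, and its genotype label is wild type. The labels do not say whether A and B were grown separately, so p-values measure the spread between libraries, part of which may be technical. All libraries are labelled as E14, whereas the methods place the floxed Dnmt1 line in C57BL/6, derive the Dicer/Dnmt1 line from it by genome editing and delete the floxed genes with Cre after 4-hydroxytamoxifen, so that a difference of line between WT and the knockouts cannot be told apart from genotype if the WT libraries are E14. Cells were kept in serum and LIF with or without feeder cells, and the labels do not say which library had feeders.

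let-7 miRNAs are cut by Drosha and then by Dicer from hairpin precursors, and the mature strand guides Argonaute to messenger RNAs through its seed, bases 2 to 8. They are known as miRNAs of differentiated cells. In pluripotent cells the RNA-binding proteins Lin28a and Lin28b bind the loop of the precursor and hold back its processing, so mature let-7 is normally scarce there.

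The mature 5′ strands of the members are shown first because they decide which rows can be told apart by a read. RefSeq (GRCm38.p6) held a hairpin for all 10 members. The 5p strand of Mirlet7a-2 was found inside its hairpin. All are 22 bases long, all carry 1 seed, shown in capitals, and the 10 genes give 8 different sequences.
let-7a-5p (Mirlet7a-1 and Mirlet7a-2): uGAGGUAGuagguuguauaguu
let-7b-5p: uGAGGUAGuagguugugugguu
let-7c-5p (Mirlet7c-1): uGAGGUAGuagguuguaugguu
let-7d-5p: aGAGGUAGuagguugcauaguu
let-7f-5p (Mirlet7f-1 and Mirlet7f-2): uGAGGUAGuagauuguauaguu
let-7g-5p: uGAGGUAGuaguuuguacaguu
let-7i-5p: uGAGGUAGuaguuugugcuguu
miR-98-5p: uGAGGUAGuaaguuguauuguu

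The differences lie outside the seed. With positions counted from 1 at the 5′ end and the let-7a base given first, let-7f differs from let-7a by G12A alone, let-7c by A19G, let-7b by A17G and A19G, and miR-98 by G11A and A19U. let-7i is the most distant from let-7a, with G12U, A17G, U18C and A19U, and it differs from let-7g by 2 bases. A read of let-7i-5p is therefore at least 2 bases away from every other member, whereas several other pairs are separated by a single base.

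Copies of a gene can share a mature sequence, and then a read does not say which copy it came from. Searched on both strands of NCBIM37, the build of the table, the 5p strands of let-7a, let-7c and let-7f each occur at 2 places and those of let-7b, let-7d, let-7g, let-7i and miR-98 at 1 place each. let-7c-5p is shared with Mirlet7c-2, which is not a member. The opposite (3p) strands of the let-7a and let-7f copies, with their bases 2 to 8 in capitals, are shown because they differ where the 5p strands do not.
let-7a-1-3p: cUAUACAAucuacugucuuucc
let-7a-2-3p: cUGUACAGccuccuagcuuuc
let-7f-1-3p: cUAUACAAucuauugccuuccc
let-7f-2-3p: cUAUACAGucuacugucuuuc

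The 3p strand of Mirlet7a-1 also occurs in the Mirlet7c-2 hairpin, at 2 places in the genome in all. The table gives 1 value per gene, so the strands of a hairpin are not separated, and how reads with several positions were placed is not stated. Across the 402 miRNA rows that matched a RefSeq hairpin by symbol, 26 of the 56 that share a mature sequence with another hairpin had no read in any library (46.4%), beside 113 of the other 346 (32.7%).

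The loop between the strands was searched, on the RNA strand, for GGAG, the letters bound by the zinc knuckles of Lin28. It held GGAG in 8 of the 10 member hairpins, and not in Mirlet7b or Mir98. Of all 645 RefSeq mouse hairpins with both strands listed, 8.22% held it, and of the 52 other hairpins with a loop of 23 to 36 bases, the range of the members, 15.4% did. The loop of Mirlet7i, the member with most reads, is shown with the match in capitals, and a match is a run of letters, not a measured binding site.
Mirlet7i loop: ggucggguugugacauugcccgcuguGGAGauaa

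The members sit at 7 places on NCBIM37. Mirlet7i lies alone at chr10:122422696-122422780 on the minus strand, in no annotated gene. Mirlet7d (chr13:48631381-48631483) and Mirlet7a-1 (chr13:48633548-48633641) lie on the minus strand of 1 cluster, with the Mirlet7f-1 hairpin in AC147162.1 (chr13:48633194-48633290) between them. That clone row is annotated on the plus strand although the hairpin reads on the minus strand. Mirlet7b (chr15:85537749-85537833, plus) lies beside Mirlet7c-2, and Mirlet7c-1 (chr16:77599902-77599995, plus) lies in an intron of the opposite-strand gene Gm11146. Mirlet7g (chr9:106081171-106081258, plus) lies in an intron of Wdr82. Mirlet7f-2 (chrX:148346889-148346971, plus) and Mir98 (chrX:148347757-148347864, plus) share Huwe1, also in introns. CT009696.1, the row of the Mirlet7a-2 hairpin (chr9:41344799-41344894, plus), lies in an intron of the long noncoding RNA gene D230004N17Rik.

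Depth set a hard limit on these rows. Libraries held 8710 to 245184 reads, so that 1 read was worth 4.08 to 114.81 RPM (reads scaled to a library of 1000000 reads), and 3 of them (WT 2A and both libraries of Dicer/Dnmt1 KO culture 1) held fewer than 30000. Annotated miRNAs took 29.5% to 65.7% of the counts in WT, 51.3% to 53.3% in Dnmt1 KO and 6.31% to 12.1% in the double knockout. RNAs of 20 to 24 nt do not measure the targeted messenger RNAs (the Dicer1 row held 7 reads over WT, 1 over Dnmt1 KO and 1 over Dicer/Dnmt1 KO, and the Dnmt1 row 62, 17 and 14).

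let-7 was scarce in WT and more abundant in both knockouts. The 8 rows together held 341 reads in the 12 libraries: 48 came from WT, 95 from the Dnmt1 KO libraries and 198 from the double knockout. Their sum was 0 RPM in WT 2A and 55.4 to 85.6 RPM in the other 5 WT libraries. Both Dnmt1 KO libraries had more, 473 and 586 RPM. The Dicer/Dnmt1 KO libraries had 694 RPM (1A), 1148 RPM (1B), 1655 RPM (2A) and 438 RPM (2B). Every knockout library lay above every WT library, and the lowest Dicer/Dnmt1 KO library lay below both Dnmt1 KO libraries. How many of all features separate WT from the knockouts in this way is not given here. The means were 53.3 RPM ± 28.4 (SD, n = 6), 529 RPM ± 79.7 (n = 2) and 984 RPM ± 535 (n = 4). In bulk RNA, fewer cells that carry let-7 and less let-7 per cell cannot be told apart.

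**Figure D1:**
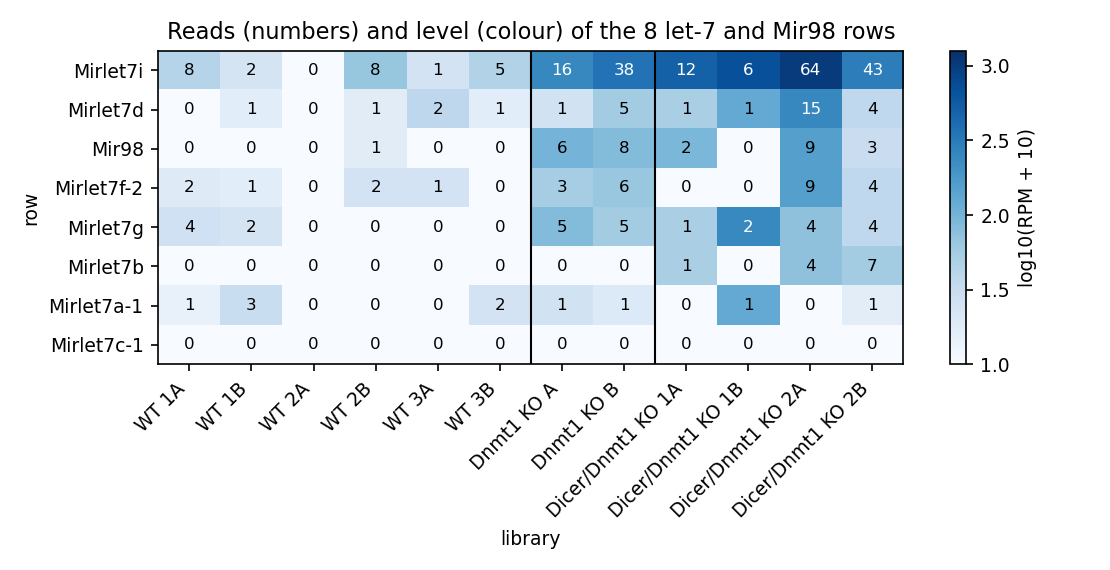
Reads (numbers) and level (colour, log10 of RPM + 10) of the 8 rows, one column per library with lines between WT, Dnmt1 KO and Dicer/Dnmt1 KO. Mirlet7i carries most reads in the knockout libraries, with 6 to 64 per library, and Mirlet7c-1 has 0 throughout.

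Mirlet7i was the main member. It held 203 of the 341 reads, which made 50.0% of let-7 reads in WT (24 of 48, 95% Wilson interval 36.4 to 63.6), 56.8% in Dnmt1 KO (54 of 95, 46.8 to 66.3) and 63.1% in Dicer/Dnmt1 KO (125 of 198, 56.2 to 69.5). The intervals overlap, so a shift in composition was not detectable at this depth. Intervals and limits from reads cover counting error only, since reads are not independent molecules.

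In WT, Mirlet7i had 8 reads in 1A (32.6 RPM), 2 in 1B (13.8), 0 in 2A, 8 in 2B (57.1), 1 in 3A (13.9) and 5 in 3B (34.7). The 0 of WT 2A allows up to 186 RPM, the level of 3 reads in that library. In Dnmt1 KO it had 16 reads in A (236 RPM) and 38 in B (353 RPM). Among the double knockout libraries it had 12 reads in 1A (490.0 RPM), 6 in 1B (689), 64 in 2A (1009) and 43 in 2B (285). Every knockout library was above the highest WT library, and the range of Dicer/Dnmt1 KO overlapped that of Dnmt1 KO. The part of all features that separates in this way is not given here, so the separation cannot be called particular to Mirlet7i. Of 132 tested miRNAs, 28 were called higher in Dnmt1 KO than in WT and 16 in Dicer/Dnmt1 KO.

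**Figure D2:**
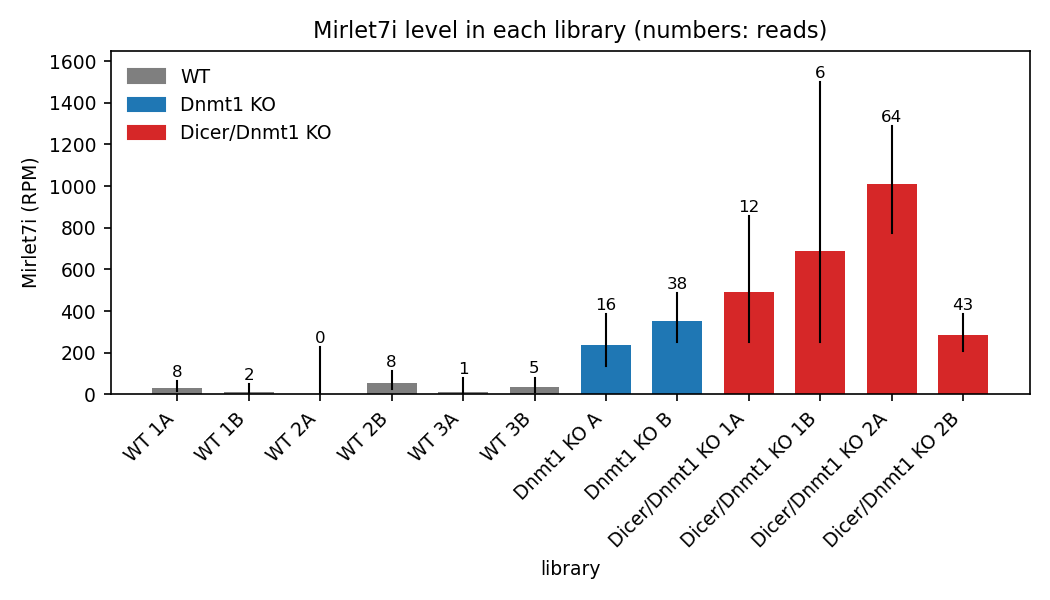
Mirlet7i in RPM (bars, linear axis from 0) in each library, coloured by genotype, with the exact 95% Poisson interval of its reads (lines) and the number of reads above. WT libraries lie between 0 and 57.1 RPM and knockout libraries between 236 and 1009 RPM.

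Mirlet7i was higher in Dicer/Dnmt1 KO than in WT. The means were 618 RPM ± 308 (n = 4) and 25.4 RPM ± 20.3 (n = 6), and the fit across all 683 tested features gave a log2 fold change of 3.61 (SE 0.58) on the log2(RPM + 10) scale, with a Benjamini-Hochberg adjusted p of 0.000241 (limma). Pooled over libraries the ratio of RPM was 16.1 (counting interval 10.3 to 26.0). The two-sided exact permutation test, chosen after the values were seen, gave p = 0.00952, the smallest that 4 libraries against 6 allow. Like the permutation tests below, it shuffled single libraries and treated A and B of a culture as independent. The fitted correlation between libraries of a culture was 0.30. Shuffling whole cultures leaves fewer arrangements, so the smallest possible p would be larger, and such a test was not run. Of the 683 features, 5.12% (35) were called higher in this comparison and 130 lower, and with scaling by library reads alone 84 were called higher and 116 lower. Mirlet7i and Mirlet7d passed the filter through knockout libraries alone, since their WT libraries were all under the 111.3 RPM it asks for, so that passing it already needed a high knockout level.

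Mirlet7i was also higher in Dnmt1 KO than in WT, at 295 RPM ± 82.5 (n = 2). The log2 fold change was 3.67 (SE 0.73, adjusted p = 0.00613 by limma), against a background of 6.59% of the 683 features called higher. The pooled ratio was 9.79 (5.95 to 16.6), and the two-sided exact permutation test gave p = 0.0714, the smallest that 2 libraries against 6 allow. The call was lost without A (adjusted p = 0.0821), without B (0.166) and with the A and B libraries of each culture summed (0.149), and also with no filter (0.333) and with a pseudocount of 1 RPM (0.0752), all by limma. Both comparisons share the WT libraries.

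Between Dicer/Dnmt1 KO and Dnmt1 KO the fitted difference of Mirlet7i was −0.06 (SE 0.78, adjusted p = 0.968, limma), while 22.8% of the features were called in either direction. The direction depended on the scaling. Scaling by library reads alone gave 0.93 (adjusted p = 0.390) and factors from small nucleolar RNAs (snoRNAs) and small nuclear RNAs gave −0.53 (adjusted p = 0.763), while the median of all features moved from −0.16 to 0.75 and −0.60. Relative to that median the 3 values were 0.09, 0.18 and 0.07. The two-sided exact permutation test of RPM gave p = 0.267 (smallest possible 0.133). Pooled over libraries, the ratio of RPM was 1.64 (counting interval 1.18 to 2.30). That interval excludes 1, but it is scaled by library reads alone and leaves out the spread between libraries.

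Loss of Dicer takes away the enzyme that most miRNAs need, and the tested miRNAs as a class were lower in Dicer/Dnmt1 KO. Of 132 tested miRNAs, 81 were lower and 16 higher than in WT, with a median log2 fold change of −2.79. Mirlet7i ranked 4 from the highest among the 132, after Mir127, Mir434 and Mir411, and Mirlet7d ranked 14. In Dicer/Dnmt1 KO against Dnmt1 KO, 99 of the 132 were lower and 0 higher, with a median of −4.18, and Mirlet7d (0.40) ranked 2 and Mirlet7i 6. In Dnmt1 KO against WT, 28 were higher and 1 lower, the median was 1.40, and Mirlet7i and Mirlet7d ranked 18 and 64. The medians of all 683 features in the 3 comparisons were −0.09, −0.16 and 0.13 in that order.

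**Figure D3:**
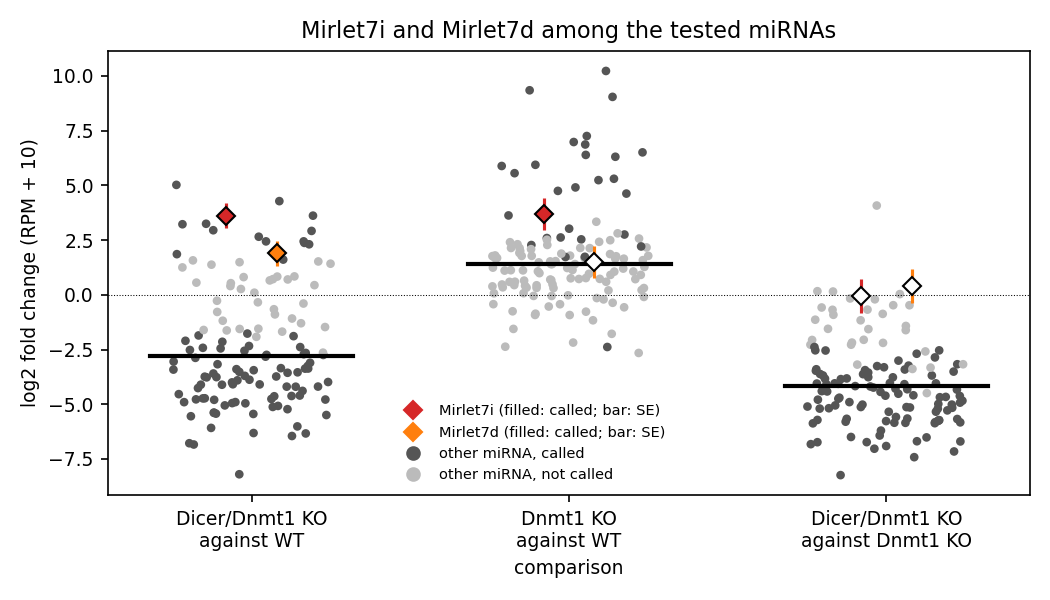
Log2 fold change on the log2(RPM + 10) scale of each of the 132 tested miRNAs in the 3 comparisons, with the median of the class as a bar. Mirlet7i (red, at 3.61, 3.67 and −0.06) and Mirlet7d (orange) are diamonds with SE, filled where the adjusted p was under 0.05, and in both comparisons of Dicer/Dnmt1 KO they lie above the class median.

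The share of let-7 among miRNA reads was also compared. The 8 rows made 0.0142% ± 0.00727 of miRNA reads in WT (n = 6), 0.0830% ± 0.0149 in Dnmt1 KO (n = 2) and 1.18% ± 0.652 in Dicer/Dnmt1 KO (n = 4), with ranges of 0 to 0.0211%, 0.0725% to 0.0936% and 0.608% to 1.78%. The 3 groups did not overlap on this share. Its denominator differs, since miRNAs took 6.31% to 12.1% of the counts in Dicer/Dnmt1 KO and 51.3% to 53.3% in Dnmt1 KO. A row that does not fall with the other miRNAs therefore rises in this share. How large a part of all features separates the groups in this way, by this share or in RPM, is not given here. Against snoRNA reads, which do not need Dicer, the order of the knockouts was different. Per 10000 snoRNA reads the 8 rows had 3.62 ± 3.36 in WT, 54.5 ± 11.3 in Dnmt1 KO and 31.9 ± 11.6 in Dicer/Dnmt1 KO, and every Dicer/Dnmt1 KO library (18.2 to 42.8) lay between the highest WT library (9.82) and the lowest Dnmt1 KO library (46.5).

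**Figure D4:**
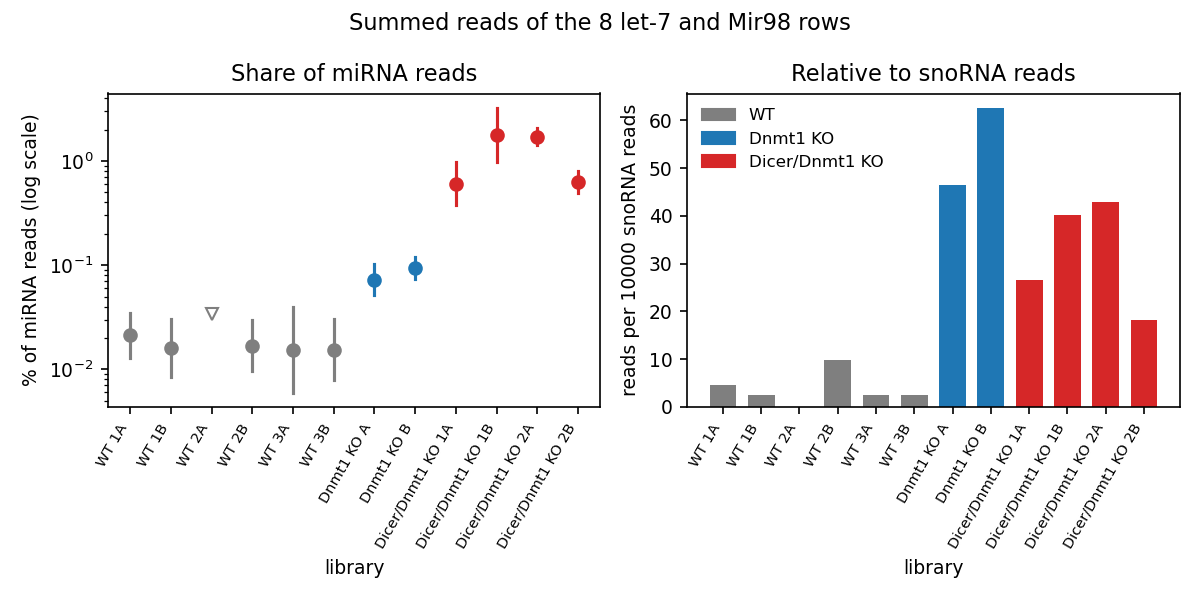
Summed reads of the 8 rows in each library as a percentage of miRNA reads (left, log axis, 95% Wilson interval, open triangle at the upper limit for WT 2A with 0 reads) and per 10000 snoRNA reads (right, linear axis). On the left Dicer/Dnmt1 KO is highest, at 0.608% to 1.78%, and on the right Dnmt1 KO is highest, at 46.5 and 62.5.

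Mirlet7d was the only other member with enough reads to pass the filter. Each WT library held 0 to 2 of its reads (0 to 27.7 RPM). Dnmt1 KO A and B held 1 and 5 (14.8 and 46.5 RPM). For Dicer/Dnmt1 KO there was 1 read each in 1A and 1B, 15 in 2A and 4 in 2B (40.8, 115, 237 and 26.5 RPM). Library 2A alone held 15 of the 21 Dicer/Dnmt1 KO reads, and the lowest Dicer/Dnmt1 KO library overlapped WT. The fitted difference from WT was 1.90 (SE 0.58, adjusted p = 0.0279, limma). With culture as a random effect the adjusted p was 0.0997. In the main limma fit, which had no culture effect, leaving out WT 1A, 1B or 3B moved the adjusted p from 0.0279 to 0.0591, 0.0517 and 0.0530. Without Dicer/Dnmt1 KO 1B or 2A, or without the 3 libraries under 30000 reads, the row no longer had the reads to be tested. In Dnmt1 KO against WT the difference was 1.50 (SE 0.74, adjusted p = 0.308) and between the knockouts 0.40 (SE 0.78, adjusted p = 0.844).

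The other 6 rows were below the read filter and were fitted with no filter, over 14232 features. There 0.155% of features were called higher in Dicer/Dnmt1 KO against WT and 0.288% in Dnmt1 KO against WT, and 0.942% were called between the knockouts. Mirlet7c-1 had no read and could not be fitted. Against WT, Dicer/Dnmt1 KO had a higher fitted level in 7 of the 7 rows with a read (35.4% of all features), where the median was 1.78 and that of all features −0.15, and 2 were called, Mirlet7b and Mirlet7i. Mirlet7d lost its call there (1.80, adjusted p = 0.373, limma). Dnmt1 KO had a higher fitted level in 6 of 7 (25.7% of all features) and the same in Mirlet7b, where the median was 2.05 and that of all features −0.16, and Mir98 alone was called. Between the knockouts the double knockout was higher in 2 of 7 (68.5% of all features) and lower in 5, with a median of −0.56 beside 0 for all features, and the limma adjusted p was under 0.05 for 0 of the 7 and the unadjusted p was under 0.05 for 1 of them, Mirlet7b (0.00794).

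Mir98 was all but absent from WT, with 1 read in WT 2B and 0 in the other 5 libraries. It had 6 and 8 reads in Dnmt1 KO (88.7 and 74.3 RPM). In Dicer/Dnmt1 KO it had 2 reads in 1A (81.7 RPM), 0 in 1B, 9 in 2A (142) and 3 in 2B (19.9). The 0 reads of a WT library allow up to 12.2 RPM (1A), 20.7 RPM (1B), 186 RPM (2A), 41.6 RPM (3A) or 20.8 RPM (3B), and that of Dicer/Dnmt1 KO 1B up to 344 RPM. WT 2A and Dicer/Dnmt1 KO 1B could therefore not be placed among the other libraries. Pooled counting intervals were 0.0332 to 7.31 RPM in WT, 43.7 to 134 RPM in Dnmt1 KO and 30.95 to 94.97 RPM in Dicer/Dnmt1 KO. By these intervals WT lay below both knockouts, and an order of the knockouts was not detectable at this depth. The unfiltered limma fit gave 3.35 (SE 0.77, adjusted p = 0.00644) for Dnmt1 KO and 1.79 (SE 0.61, adjusted p = 0.259) for Dicer/Dnmt1 KO against WT. With 1 WT read, the pooled ratios of 60.9 and 43.2 have counting intervals of 9.27 to 2576 and 6.57 to 1825.

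Mirlet7b was read in Dicer/Dnmt1 KO alone, with 1 read in 1A, 0 in 1B, 4 in 2A and 7 in 2B (40.8, 0, 63.1 and 46.5 RPM). It had 0 reads over WT, which allows up to 3.93 RPM pooled over the group, and 0 over Dnmt1 KO, which allows up to 17.1 RPM. Measured against 3 reads over the group, the pooled Dicer/Dnmt1 KO level of 48.5 RPM was at least 12.3-fold higher than WT and at least 2.84-fold higher than Dnmt1 KO, with the counting error of the 12 reads left aside. With it, the exact 95% lower bounds of the ratios were 8.57 and 1.97. The unfiltered adjusted p by limma was 0.0407 against WT and 0.442 against Dnmt1 KO.

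Mirlet7g and Mirlet7f-2 had few reads in every group. Mirlet7g had 4 and 2 reads in WT 1A and 1B and 0 in the other 4 WT libraries. Dnmt1 KO A and B had 5 each, and the 4 double knockout libraries had 1, 2, 4 and 4. Its knockout libraries had 26.5 to 230 RPM and its WT libraries 0 to 16.3 RPM. The 0 reads of WT 2A and 3A allow up to 186 and 41.6 RPM, so that a separation library by library was not detectable at this depth. Its adjusted p in the unfiltered limma fit was 0.340 for Dnmt1 KO (2.52, SE 0.83) and 0.376 for Dicer/Dnmt1 KO (1.78, SE 0.65). Mirlet7f-2 was read 0 to 2 times in a WT library, 3 and 6 times in the Dnmt1 KO libraries, and 9 and 4 times in Dicer/Dnmt1 KO 2A and 2B, with 0 in the libraries of culture 1, which allows up to 122.5 RPM in 1A and 344 RPM in 1B. Its differences from WT were 2.05 (SE 0.79, adjusted p = 0.513) and 0.61 (SE 0.62, adjusted p = 0.732) in the same limma fit.

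**Figure D5:**
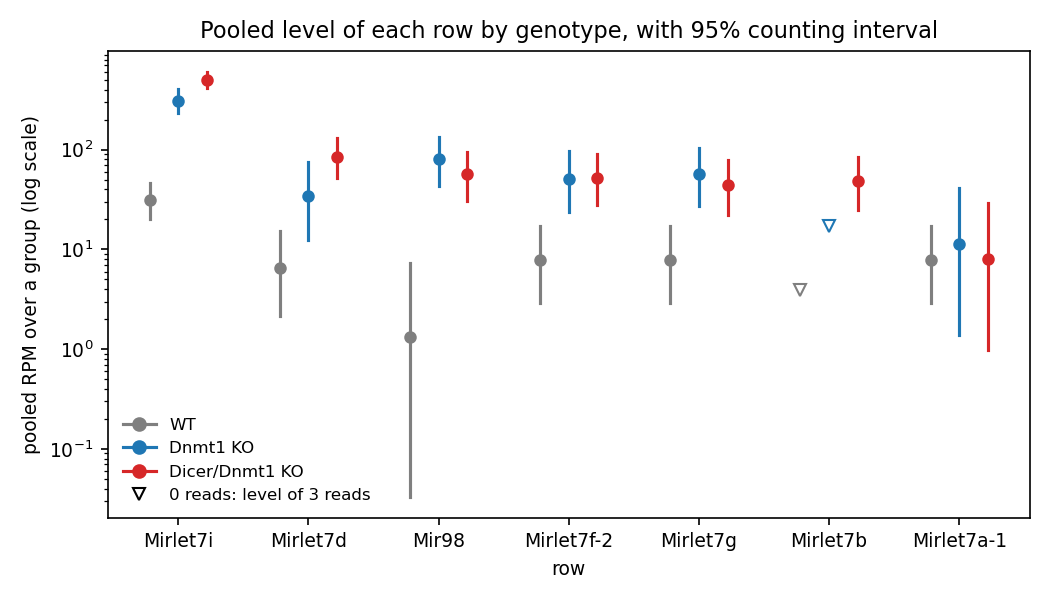
RPM pooled over the libraries of a group (points, log axis) with exact 95% Poisson intervals for the 7 rows with a read, coloured by genotype, and open triangles at the level of 3 reads where a group had none. For Mirlet7i the intervals of WT (20.2 to 46.8) and of both knockouts do not overlap, whereas for Mirlet7a-1 all 3 groups overlap.

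Mirlet7a-1, which shares its mature strand with Mirlet7a-2, gave overlapping counting intervals in the 3 groups. It had 6 reads over WT (7.87 RPM pooled, interval 2.89 to 17.1), 2 over Dnmt1 KO (11.4, 1.38 to 41.2) and 2 over Dicer/Dnmt1 KO (8.09, 0.979 to 29.2). Its fitted differences from WT were 0.09 (SE 0.53) and 0.65 (SE 0.67) for Dicer/Dnmt1 KO and Dnmt1 KO. The clone row with the Mirlet7a-2 hairpin had 0 reads in all 12 libraries, as had Mirlet7c-1 and Mirlet7c-2, and each 0 allows up to 2.53 RPM over the pooled libraries. The clone row with the Mirlet7f-1 hairpin had 6 reads in WT, 0 in Dnmt1 KO and 2 in Dicer/Dnmt1 KO. Summing copies that share a mature sequence does not touch the rows of Mirlet7i and Mirlet7d, and no summed row passed the filter. Their values and calls therefore could not change. Mirlet7e is not a member, but its hairpin lies in clone row AC165361.1, which had 24, 34 and 50 reads in the 3 groups. That row is annotated on the minus strand although the hairpin reads on the plus strand. It passed the filter, through knockout libraries alone, and differed from WT by 2.65 (SE 0.77, adjusted p = 0.0211) in Dicer/Dnmt1 KO. In Dnmt1 KO the difference was 3.34 (SE 0.98, adjusted p = 0.0586, both limma). Dicer/Dnmt1 KO 1B had 1148 RPM of it from 10 reads.

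The rows of host genes were never below those of the miRNAs inside them in a library, so reads of a nested miRNA appear to be counted for both. Wdr82, a subunit of histone methyltransferase complexes, had 37 reads beside 27 for Mirlet7g, and over Dnmt1 KO both rows had 10. Huwe1, a ubiquitin ligase, had 161 reads, and taking away the 57 reads of Mirlet7f-2 and Mir98 left 72 in WT, 7 in Dnmt1 KO and 25 in Dicer/Dnmt1 KO. The Huwe1 row did not pass the test against WT in either knockout (0.86, SE 0.74, adjusted p = 0.504, and 1.73, SE 0.94, adjusted p = 0.346, limma).

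Around Mirlet7a-2 the neighbouring miRNAs were higher in both knockouts. The row of Mirlet7a-2 itself had no read, but let-7a reads could have been placed at Mirlet7a-1. The clone rows that hold the Mir100 hairpin (5212 bases from the Mirlet7a-2 row) and the Mir125b-1 hairpin (45115 bases away) had log2 fold changes of 2.31 (SE 0.50, adjusted p = 0.00314) and 2.92 (SE 0.61, adjusted p = 0.00215) in Dicer/Dnmt1 KO and of 2.27 (SE 0.64) and 2.75 (SE 0.77), both with an adjusted p of 0.0483, in Dnmt1 KO by limma. The Mir100 row had 0 reads over WT, so its fitted value depends on the pseudocount. The Mir125b-1 row had at most 35.7 RPM in a WT library. Both rows thus passed the filter of 111.3 RPM through knockout libraries alone, so that passing it already needed a high knockout level. Near Mirlet7c-1, Mir99a had 5 reads, all in Dnmt1 KO. Mir125b-2, also looked up as a neighbour, had 4 reads, 3 in WT and 1 in Dnmt1 KO.

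Among 678 tested features that neither are nor overlap a let-7 row, the 5 whose log2(RPM + 10) followed the summed let-7 reads most closely over the 12 libraries were 2610203C20Rik (Pearson r = 0.929), Atp9a (0.928), CT025619.1 (0.921), Mir181a-2 (0.911) and Snx5 (0.906). 2610203C20Rik and CT025619.1 are not separate cases: the first overlaps the second, which holds Mir125b-1, and both had 17 reads in WT. Mir181a-2 had 17.4 RPM ± 13.8 in WT, 141 RPM ± 11.1 in Dnmt1 KO and 125 RPM ± 48.1 in the double knockout. The 5 were chosen for following let-7 in these libraries, so their levels are a description. These correlations describe libraries that fall into 3 genotype groups and differ in depth.

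Markers of the cells were set beside let-7. All 12 ESC miRNAs of the Mir290 and Mir302 clusters had reads, and their sum was 28680 to 93270 RPM in WT, 55930 to 99650 RPM in Dnmt1 KO and 1221 to 3797 RPM in the double knockout. Of 12 fibroblast and mesenchymal miRNAs, 11 had a row and 10 a read, and the sum was 9854 to 15480 RPM in WT, 41310 to 49190 RPM in Dnmt1 KO and 12530 to 40790 RPM in the double knockout. Mir143, an abundant miRNA of mesenchymal cells, moved with let-7: it was 585 RPM ± 278 in WT, 6140 RPM ± 1161 in Dnmt1 KO and 8481 RPM ± 4487 in Dicer/Dnmt1 KO, with log2 fold changes of 3.63 (SE 0.70, adjusted p = 0.00506) and 2.95 (SE 0.55, adjusted p = 0.000900) against WT by limma, and its correlation with let-7 over the 12 libraries was 0.709 (rank 40 of 678). Mir21 and Mir22 were higher in Dnmt1 KO than in WT (1.73, adjusted p = 0.0216, and 2.62, adjusted p = 0.00762, limma), while in Dicer/Dnmt1 KO they gave −0.66 (adjusted p = 0.186) and −0.78 (adjusted p = 0.241).

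Mir10a and Mir10b, of the same list, had 1379 and 1322 reads and were not called, at 1.62 (adjusted p = 0.0819) and −0.34 (adjusted p = 0.837) in Dicer/Dnmt1 KO and 1.55 (adjusted p = 0.328) and 1.23 (adjusted p = 0.569) in Dnmt1 KO against WT by limma. Mir199a-1 had 0 reads, Mir199a-2 had 1, and Mir145, Mir214, Mir196b and Mir196a-1 had 18, 16, 13 and 5. Among neural markers Mir128-1 alone had reads (72 in WT, 10 in Dnmt1 KO, 0 in Dicer/Dnmt1 KO), among blood markers Mir142 had 436 reads, of which 3 were in Dicer/Dnmt1 KO, with 3 for Mir451, 1 for Mir223 and 0 for Mir144, and the liver marker Mir122a had 0. The part of other cells in the let-7 levels was not tested.

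Genes of the let-7 pathway were barely represented, since reads of 20 to 24 nt do not measure messenger RNA levels. Of 21 genes of let-7 processing (Lin28, the terminal uridylyltransferases, Dis3l2, the Drosha and Dicer complexes and Argonautes), 20 had a row, 19 had a read, no row had more than 9 reads in a library and 0 were tested. Their summed level was 61.95 to 319 RPM in WT, 139 and 162.5 RPM in Dnmt1 KO and 122.5 to 344 RPM in the double knockout, and the groups overlapped. Of 22 known let-7 targets, including Hmga2, Myc and the Igf2bp genes, 22 had reads and 1 was tested. That was Igf2bp1, which encodes an RNA-binding protein of early development, at −1.49 (SE 0.57, adjusted p = 0.0777) in Dicer/Dnmt1 KO and −1.93 (SE 0.73, adjusted p = 0.163) in Dnmt1 KO against WT by limma, and it was not called. The other 21 had too few reads to be tested. The summed level of the 22 was 186 to 430 RPM in WT, 73.9 and 111.5 RPM in Dnmt1 KO and 279 to 410 RPM in Dicer/Dnmt1 KO. Both Dnmt1 KO libraries lay below all others, and this difference was not tested. How many other sets of messenger RNA fragments do the same is not given here. Igf2bp1 alone had 76 reads in WT, 3 in Dnmt1 KO and 17 in Dicer/Dnmt1 KO. At like depth, Dnmt1 KO A (67678 reads) had reads in 3310 features and WT 3A (72163 reads) in 4853. The sum is therefore no measure of an effect of let-7 on its targets. Lin28a, Lin28b and Trim71 stand in both lists.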

How the data were processed

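Small RNA-seq reads were trimmed by the authors (Trim Galore 0.3.5), restricted to 20 to 24 nt, mapped to NCBIM37 (Bowtie2 2.2.6) and counted per annotated feature in SeqMonk, as the methods and processing notes state. The deposited values are log2 RPM, scaled by the authors to library reads, with 0 reads written as 0.9 read. Whole reads were recovered for 100.0% of values (within 0.01 read). A further 89 value columns belong to no sample here and were not used.

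Features needed 111.3 RPM (10 reads at the median depth) in 2 libraries and 15 reads in all, which left 683 features, 2 of them members. TMM factors (trims of 30% and 5%) were computed, and log2(RPM + 10) was tested with limma 3.58.1 (trend, R 4.3.3) in 1 fit over 12 libraries, with Benjamini-Hochberg adjustment and a threshold of 0.05. Fold changes on this scale understate changes of low rows. The fit was run on simulated libraries drawn independently of each other. They carry no correlation between libraries of a culture, so the simulation does not cover that dependence in the data. Exact tests and intervals used scipy 1.17.1. Hairpins from RefSeq (GRCm38.p6) were matched to the rows by sequence. Alternatives covered scaling, filter, pseudocount, voom, cultures, replicate numbers and each library left out. The members and lists were chosen with earlier results of these data known. All 10 members were named whatever their values, with neighbours within 10 kb or containing a member, and the 5 features most like their sum.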

Additional observations from a re-analysis of the deposited data

Results flagged for a closer look

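Among 15 sets of values (WT or Dicer/Dnmt1 KO, each row and the sum), 4 had 1 library far from the others of its group by Dixon's criterion. The nominal rate of about 1 in 20 does not hold for rows of so few reads at unequal depth. A row with 1 read in its group, such as Mir98 in WT, is always marked. The 4 are therefore a description and not an excess of outliers. Dicer/Dnmt1 KO 1B had 114.8 RPM of Mirlet7a-1, which is 1 read, against 0 to 6.64 RPM in the other 3 libraries. WT 3A had 27.72 RPM of Mirlet7d, which is 2 reads, against 0 to 7.13 RPM in the other 5. WT 2B had 7.132 RPM of Mir98, its only read in WT. WT 2A had 0 RPM of the summed rows against 55.4 to 85.6 RPM, in a library where 3 reads are worth 186 RPM.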

How the results depend on the processing

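Mirlet7i in Dicer/Dnmt1 KO against WT was past the threshold under all 26 alternatives run, with log2 fold changes of 2.49 to 4.50 and adjusted p-values (limma) of 3.4e-05 to 0.0173. The alternative that summed copies is among them in every comparison, although it does not touch the Mirlet7i row and could not change its result. In Dnmt1 KO against WT Mirlet7i was past the threshold under 20 of 25. It was not with no filter (3.41, adjusted p = 0.333), a pseudocount of 1 (4.57, adjusted p = 0.0752) or A and B summed (3.09, adjusted p = 0.149), nor without either Dnmt1 KO library, where leaving out single libraries gave 3.38 to 3.998. The count of called rows in that comparison was then 0 in place of 1 under a pseudocount of 1 and A and B summed, and 0 to 1 over libraries left out. In Dicer/Dnmt1 KO against WT it was 1 in place of 2 with A and B summed, with culture as a random effect and without the 3 libraries under 30000 reads (chosen after seeing the data), and 1 to 2 over libraries left out, since Mirlet7d lost its call or was not tested. Mirlet7d was also not called with no filter (1.80, adjusted p = 0.373) or with culture as a random effect (1.90, adjusted p = 0.0997). Between the knockouts no row was called under any of the 25 alternatives, and Mirlet7i ranged from −0.53 to 0.93. Scaling by library reads alone moved the median of all features in Dicer/Dnmt1 KO against WT by 0.70 and the share of calls that were higher from 21.2% to 42.0% (84 higher and 116 lower in place of 35 and 130), and between the knockouts from 5.13% to 15.9%. With the replicate number of the titles as a block, Mirlet7i was 3.72 (adjusted p = 0.00371) and Mirlet7d 2.30 (adjusted p = 0.0360), and 2 rows were called. Whether the numbers pair the libraries is not known. Deviations of WT and Dicer/Dnmt1 KO libraries with the same title tag correlated at −0.23 (1A), 0.11 (1B), −0.17 (2A) and −0.29 (2B). These are deviations from the group mean, so the 2 Dicer/Dnmt1 KO cultures mirror each other and the correlations cannot exclude a pairing. Depth limits every row: 6 of the 8 held under 10 reads in every library, and Mirlet7i held 0 to 8 reads in a WT library.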
